A study of Mus musculus with 10 samples.

Results

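The loci described here are the expressed, named transcription units of mouse chromosome 12 in 5 tumours. A row of the authors' deposited table was taken when its locus lay on chromosome 12, it carried a gene name, and the larger of its 2 condition values was at least 1 FPKM (an abundance scaled for transcript length and sequencing depth). This gave 472 loci of the 27968 rows, and the same rule gave 12323 loci on the other 18 autosomes. The tumours grew under the skin of immune-compromised mice from C57BL/6 embryonic fibroblasts (MEFs) with RAS, in the G12V form by the heading of the authors' table, and a dominant-negative p53 (DNP53). In 3 tumours from 2 lines cyclin D1 was tagged (TAG), and in 2 tumours from 2 other lines it was not (WT). All 5 were given siRNA against the HA tag, in the Aonys formulation by the rectal route, 5 times a day once the tumour had reached 500 mm3, and were taken 30 minutes after the last dose. Each library was run on 2 lanes, giving 10 samples. No age is labelled, and the promoters driving RAS and DNP53 are not stated in the sources used here.

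The table holds 1 value for each of 2 conditions, C1 and C2. Which of them is the tagged condition is stated neither there nor in the labels, so differences are given as C2 over C1 and the tag is not named in them. No value per tumour exists in it, so values carry no SD or n, and the depth is unknown. A locus is called when the Cuffdiff q deposited by the authors is under 0.05. The replicates that Cuffdiff was given (tumours or lanes) are not stated in these sources, and q may therefore not measure tumour-to-tumour spread. Chromosome 12 was chosen with its log2 ratios known, and expression set the membership. The ratios of its loci are therefore given as a description without a test of their own.

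Mouse chromosome 12 has its centromere at one end, so positions run from the centromere to the distal tip. Its loci include the interferon-induced pair Rsad2 and Cmpk2, the oxygen-sensing genes Egln3 and Hif1a, the transcription factors Fos and Max, the serpin cluster, the imprinted interval from Dlk1 to Dio3 and the kinase Akt1. In an imprinted interval genes are used from 1 parental copy: Dlk1 and Dio3 come mainly from the paternal chromosome, and the noncoding RNAs Meg3, Rian and Mirg from the maternal one.

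A pair and a trio of neighbouring loci that were called together are shown by their promoters, because they span the least sequence among the 4 called pairs and the 2 called trios of the chromosome. The letters are the 250 bases before the first listed start of each gene, from RefSeq on GRCm38.p6, a later build than the MGSCv37 coordinates used for the values. They are chr12:26456453-26456702 (-) for Rsad2, chr12:26468965-26469214 (+) for Cmpk2, chr12:76795555-76795804 (-) for Gpx2, chr12:76822525-76822774 (-) for Rab15 and chr12:76837217-76837466 (+) for Fntb, each written 5′ to 3′ on the gene's strand. In the first pair, capitals mark the core of an interferon-stimulated response element, GAAA and a further GAAA with any 2 bases between them, or TTTC and TTTC in the same spacing for the other strand.
Rsad2: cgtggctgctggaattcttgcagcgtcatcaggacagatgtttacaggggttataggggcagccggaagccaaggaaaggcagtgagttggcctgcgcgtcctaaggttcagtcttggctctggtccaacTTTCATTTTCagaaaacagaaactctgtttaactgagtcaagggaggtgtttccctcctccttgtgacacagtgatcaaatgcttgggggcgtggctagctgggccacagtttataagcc
Cmpk2: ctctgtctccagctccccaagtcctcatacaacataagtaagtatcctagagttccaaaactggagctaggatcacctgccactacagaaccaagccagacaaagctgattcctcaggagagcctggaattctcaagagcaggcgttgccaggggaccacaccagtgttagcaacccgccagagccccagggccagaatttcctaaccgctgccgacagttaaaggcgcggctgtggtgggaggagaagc
In the trio, capitals mark CG dinucleotides.
Gpx2: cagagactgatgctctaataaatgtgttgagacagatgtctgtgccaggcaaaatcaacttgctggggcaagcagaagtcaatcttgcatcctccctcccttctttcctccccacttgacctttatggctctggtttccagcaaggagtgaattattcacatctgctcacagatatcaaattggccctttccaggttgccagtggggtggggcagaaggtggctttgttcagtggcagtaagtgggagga
Rab15: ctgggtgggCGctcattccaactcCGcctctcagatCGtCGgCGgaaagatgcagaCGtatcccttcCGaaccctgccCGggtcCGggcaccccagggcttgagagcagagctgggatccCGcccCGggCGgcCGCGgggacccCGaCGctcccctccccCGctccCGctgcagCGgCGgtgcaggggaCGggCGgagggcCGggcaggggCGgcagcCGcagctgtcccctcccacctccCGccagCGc
Fntb: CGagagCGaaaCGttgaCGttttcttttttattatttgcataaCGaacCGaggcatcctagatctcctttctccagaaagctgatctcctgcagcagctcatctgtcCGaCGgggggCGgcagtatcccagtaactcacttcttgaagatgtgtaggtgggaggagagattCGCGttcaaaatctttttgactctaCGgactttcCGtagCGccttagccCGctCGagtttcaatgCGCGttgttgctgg
The Rsad2 window held 1 match to the core, whose first base lay 120 bases before the start, and the Cmpk2 window held 0. The core occurred in 2.98% of all 32851 RefSeq windows of this length, and in 8 of the 365 chromosome 12 loci with a window (365 of 446 symbols matched). The Gpx2 window held 0 CG dinucleotides, against 27 for Rab15 and 18 for Fntb. Windows without any CG made up 7.87% of all windows and 7 of the 365 on chromosome 12. The sets are unlike, since all windows take every listed start of genes whether expressed or not. The chromosome 12 set takes only the first listed start of expressed loci, so the shares do not compare the chromosome with the genome. A match is a description of letters, and the table holds no measure of binding or methylation.

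The 472 loci occupied 416 distinct positions, since 106 of them share a position with another row, and 14 are joined rows in which several overlapping genes were counted together and cannot be told apart. They ran from 3235790 to 120705434 on MGSCv37. Another 301 named rows on the chromosome lay under 1 FPKM, of which 130 were at 0 in both conditions, and 202 rows had no gene name. Just inside the minimum were Efcab11 (0.378 FPKM in C1, with 1.01 FPKM in C2), Zc2hc1c (0.923 and 1.02 FPKM) and Rnf144a (0.935 and 1.05 FPKM) in the authors' deposited table. Just outside it were Adam4 (0.895 and 0.962 FPKM), Gm16596 (0.969 and 0.944 FPKM) and 5830428M24Rik (0.286 and 0.981 FPKM) in the same table. All 472 had a valid Cuffdiff test and none (0) was at 0 in a condition.

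Across the whole chromosome the loci had higher values in C2. Of the 472, 396 were higher in C2 and 76 lower, or 83.9% higher. The median log2 ratio of C2 over C1 was 0.43, a median fold of 1.35, with quartiles of 0.17 and 0.71. On the other autosomes 56.1% of loci were higher, with a median log2 ratio of 0.06 and quartiles of -0.25 and 0.36. The lower quartile of chromosome 12 thus lay above the median of the other autosomes, and 80.3% of its loci exceeded that median.

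Chromosome 12 ranked 1 of 19 autosomes by median. The other 18 medians ran from -0.11 on chromosome 14 to 0.25 on chromosome 11, and chromosome 18, chromosome 15 and chromosome 19 all stood at 0.21. The share of loci higher in C2 ran from 38.5% to 71.3% on those 18. The summed FPKM of chromosome 12 loci made up 2.45% of the sum over all autosomal loci in C1 and 3.21% in C2. The median level of a chromosome 12 locus was 10.04 FPKM in C1, with 13.8 FPKM in C2, against 11.3 and 11.9 FPKM elsewhere, by the authors' deposited table.

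**Figure D1:**
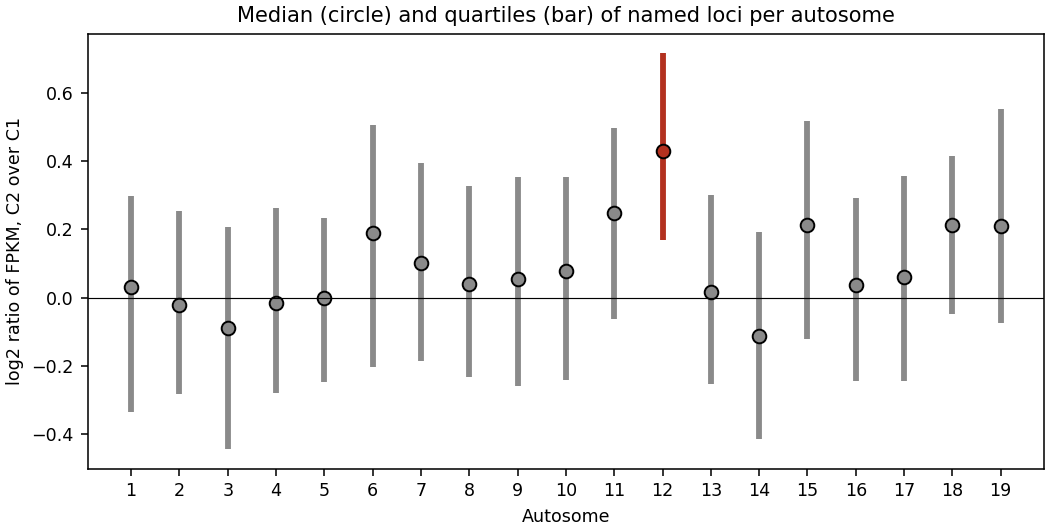
Log2 ratio of FPKM, C2 over C1, for named loci with at least 1 FPKM on each autosome. Circles are medians and bars run between the quartiles over loci, and chromosome 12 (red, median 0.43) stands above the other 18, whose medians run from -0.11 to 0.25.

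The difference was spread over many loci of modest ratio, and loci of large positive ratio were also more frequent than on the other autosomes. Of the 472, 200 had a log2 ratio from 0 to 0.5 and 121 from 0.5 to 1, which is 42.4% and 25.6% of them, against 37.9% and 10.5% on the other autosomes. Between -1 and 0 lay 59 loci (12.5%, against 37.4% elsewhere). Under -1 lay 17 loci (3.602%, against 6.494%). From 1 to 2 lay 47 loci (9.96%, against 4.27%), and at 2 and over 28 loci (5.93%, against 3.44%). Among the 413 loci that were not called the median was still 0.38 and 83.8% were higher in C2, against 0.06 and 55.8% for loci not called on the other autosomes.

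The difference was present in each class of abundance and of locus length. In 4 classes of abundance the chromosome 12 median was 0.34 at 1 to 5 FPKM, 0.48 at 5 to 20, 0.40 at 20 to 100 and 0.35 at 100 and over, where the other autosomes gave 0.03, 0.09, 0.07 and -0.0035. The share higher in C2 was 68.0% in the lowest class and 91.5% at 20 to 100 FPKM, where the quartiles of the 153 loci were 0.23 and 0.61. By length of the locus the chromosome 12 medians were 0.46 under 10 kb, 0.41 from 10 to 30 kb, 0.43 from 30 to 100 kb and 0.39 at 100 kb and over, against 0.10, 0.09, 0.05 and -0.04 elsewhere.

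**Figure D2:**
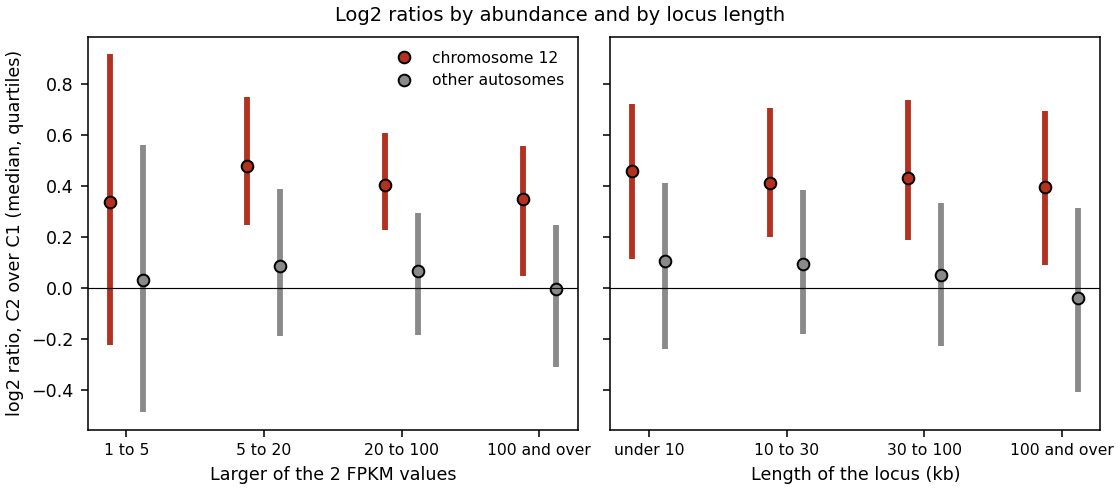
Median (circle) and quartiles (bar) of the log2 ratio, C2 over C1, over loci of chromosome 12 (red) and of the other autosomes (grey), by the larger FPKM value on the left and by locus length in kb on the right. In each of the 8 classes the red median, from 0.34 to 0.48, lies above the grey one, from -0.04 to 0.10.

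The 4 loci with the highest mean FPKM had ratios of either sign. Wdr89 stood at 653 FPKM in C1, with 619 FPKM in C2 (log2 ratio -0.08, q = 0.957) and Laptm4a, a lysosomal membrane protein, at 591 and 545 FPKM (-0.12, q = 0.928) in the authors' deposited table. Npc2, which carries cholesterol out of lysosomes, stood at 403 and 503 FPKM (0.32, q = 0.872). The remaining locus of the 4 with the highest mean has a clone name only and a log2 ratio of 0.58. None of the 4 was called by Cuffdiff (0).

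In 10 Mb windows the higher values ran from the centromere to the distal tip. All 13 windows had a median above 0.08, the median of all autosomal loci, and 8 of them held at least 20 loci. The medians of those 8 ran from 0.29 to 0.60. On the other autosomes 196 windows held at least 20 loci, their medians ran from -0.33 to 0.44, and 44.9% lay above the autosomal median. Of the 8 highest windows among all 204, 7 were on chromosome 12. Counting thin windows, of fewer than 20 loci, chromosome 11 was the 1 other autosome with every window above the autosomal median, also 13 of 13. Chromosome 18 had 9 of 10 above it and chromosome 19 had 6 of 7, the exception on each being a thin window.

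From the centromere, the window from 0 to 10 Mb had a median of 0.47 over 31 loci, 28 of them higher in C2, and that from 20 to 30 Mb had the highest, 0.60 over 24 loci. The windows from 30 to 40 and from 50 to 60 Mb had medians of 0.45 and 0.44. None (0) of the 196 other windows had a higher median than these 4 or than the window from 110 to 120 Mb, which had 0.49 over 78 loci. From 70 to 80 Mb the median was 0.44 over 70 loci and from 80 to 90 Mb 0.43 over 88 loci, with 1 other window higher than each. The window from 100 to 110 Mb had the lowest median of the 8, 0.29 over 57 loci, of which 15 were lower in C2, and 8 other windows exceeded it. The 5 thin windows, with fewer than 20 loci, had medians of 0.31 (10 to 20 Mb, 19 loci), 0.09 (40 to 50 Mb, 13 loci), 0.23 (60 to 70 Mb, 14 loci), 0.37 (90 to 100 Mb, 12 loci) and 2.69 (120 to 130 Mb, 2 loci).

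**Figure D3:**
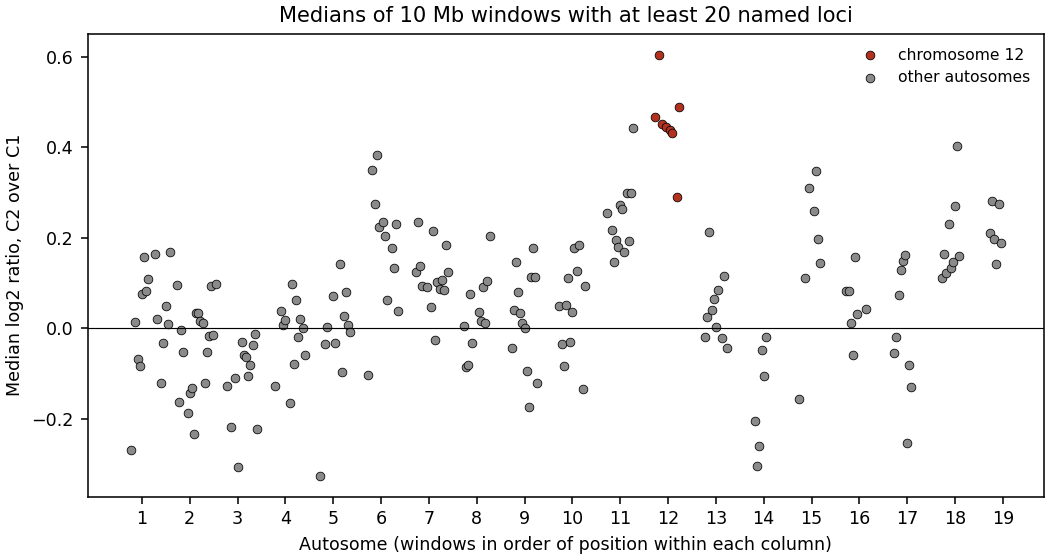
Median log2 ratio, C2 over C1, of each 10 Mb window with at least 20 named loci, in order of position within the column of its autosome. The 8 windows of chromosome 12 (red) lie between 0.29 and 0.60, and the 196 windows of the other autosomes (grey) between -0.33 and 0.44.

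A finer view used the median of 25 consecutive loci, moved along the chromosome 1 locus at a time. None (0) of the 448 such stretches had a median below 0 on chromosome 12, while each of the other 18 autosomes had stretches below 0. Stretches above 0 still made up 98.5% on chromosome 18, 96.1% on chromosome 19, 94.6% on chromosome 11 and 94.0% on chromosome 6. The stretches overlap and are not independent. The lowest ran from Lgmn to Gskip (103632285 to 106941267), with a median of 0.09, and takes in the serpin cluster. The highest ran from Yy1 to Rcor1 (110031520 to 112354128), with a median of 0.76, and takes in the Dlk1 to Dio3 interval. Both lie in the distal part of the chromosome.

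Runs of consecutive loci on the same side of 0 were long. A share of 83.9% higher in C2 by itself makes runs higher long and runs lower rare. Whether the order of loci adds to this was not tested. Runs of at least 5 loci higher in C2 numbered 33 and held 343 loci, 72.7% of the chromosome, against 22.2% over the other autosomes, where single chromosomes ran from 5.79% to 46.8%. No run of 5 loci lower in C2 occurred on chromosome 12 (0), against 10.1% of loci in such runs over the other autosomes, although chromosome 18 had none (0) either. The longest run held 44 loci from Rbm25 to Gpatch2l (84973182 to 87633072), with a median of 0.38 and only 2 called, Rps6kl1 and the transporter Mfsd7c. It takes in Fos, an AP-1 transcription factor, and Tgfb3, a TGF-beta ligand, with log2 ratios of 0.70 and 0.24, neither of them called by Cuffdiff. The longest run higher on any other autosome held 27 loci. Loci sharing a position are ordered by identifier, and overlapping rows are not independent.

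Beyond sharing the offset, neighbours on chromosome 12 resembled each other weakly. Spearman's rho between a locus and the next was 0.11 over 471 pairs, within the range of 0.10 to 0.22 of the single other autosomes. With joined rows left out it was 0.08 over 457 pairs, below the range of 0.09 to 0.21 of the others. At 10 places apart it was -0.03. The ratio had no trend along the chromosome either, with rho of 0.0011 between start and log2 ratio over the 472 loci. These correlations across loci are descriptions, since neighbours can share reads.

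**Figure D4:**
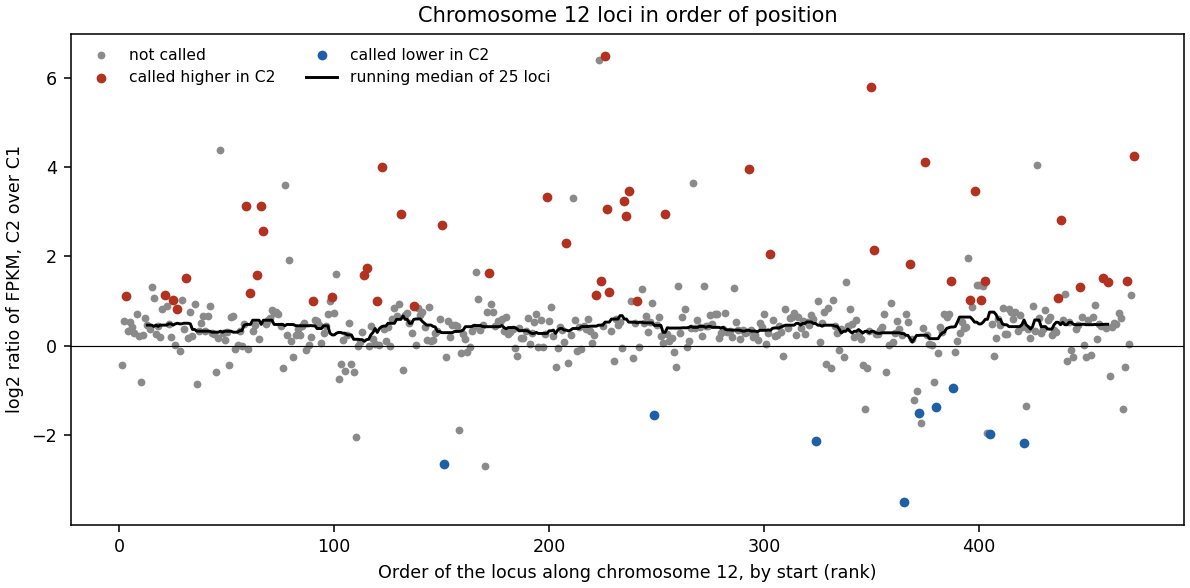
Log2 ratio of FPKM, C2 over C1, for each of the 472 loci in order along the chromosome (rank 1 nearest the centromere). Red points were called higher (50), blue points called lower (9), grey points not called, and the black line, the median of 25 consecutive loci, stays above 0 between 0.09 and 0.76.

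Of the 472 loci, 50 were called higher and 9 lower by the deposited q of Cuffdiff. The background in the same comparison was 4.79% called higher and 3.31% called lower among tested loci of the other autosomes, and chromosome 12 had 10.6% and 1.91%. Counting either direction, 12.5% of chromosome 12 loci were called, against 8.1% on the other autosomes and 7.12% of all tested rows, of which 4.2% were higher and 2.92% lower. Since the chromosome was chosen on this contrast, the shares are set side by side without a test. Of 75 loci at least 2-fold higher in C2 (a log2 ratio of 1 or more) 47 were called, and of 17 at least 2-fold lower 8 were called. Rows with a large ratio and no call included a second Hif1a row at 0.818 and 8.07 FPKM in C1 and C2 (log2 ratio 3.30, q = 0.858), while the main Hif1a row stood at 67.4 and 79.7 FPKM (0.24, q = 0.739) in the authors' deposited table. Hif1a encodes the oxygen-regulated subunit of hypoxia-inducible factor, and both of its rows share 1 position.

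The 3 called loci with the highest ratios lay in 3 different windows. Gpx2, a glutathione peroxidase of epithelia (77893321 to 77896541), rose from 0.789 to 70.7 FPKM by the authors' deposited table, that is by 6.49 on the log2 scale (q = 0.001668). Tc2n, a C2-domain protein (102883722 to 102956718), rose from 0.310 to 17.03 FPKM (5.78, q = 0.001668), and Macc1, an activator of the Met receptor gene in human colon cancer cells (120628849 to 120705434), from 0.329 to 6.22 FPKM (4.24, q = 0.001668) in that table. Clmn rose to 6.01 FPKM (4.10), Coch, an inner-ear matrix protein, to 23.4 FPKM (4.01) and Rps6kl1 to 2.17 FPKM (3.95), all from under 1.5 FPKM. Their C1 values lie near 0, and with a pseudocount of 1 the log2 ratios were 5.32 for Gpx2, 3.78 for Tc2n and 2.44 for Macc1. Dlk1, Plekhh1, Rtn1, Plek2, Grhl1 and Rsad2 made up the rest of the 12 highest, with log2 ratios between 3.12 and 3.47.

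Over the whole chromosome 10.6% of loci were called higher and 1.91% lower, and single regions were not tested against these shares. In the proximal part, from 0 to 40 Mb, the windows held 31, 19, 24 and 29 loci. Of these loci, 12 were called higher and 0 lower. Between 0 and 10 Mb these were the kinesin Kif3c (log2 ratio 1.12), Ubxn2a (1.14), the small GTPase Rhob (1.03), the heparan sulfate proteoglycan Sdc1 (0.81) and the zinc-finger factor Osr1 (1.53), the last going from 2.64 to 7.62 FPKM by the authors' deposited table. Between 20 and 30 Mb they were Grhl1, an epithelial transcription factor (3.12), Rrm2, a ribonucleotide reductase subunit needed for DNA synthesis (1.18), Id2, an inhibitor of helix-loop-helix factors (1.58), and the pair Rsad2 and Cmpk2. In this window 5 of 24 loci were called. Nampt, which makes a precursor of NAD (1.00), and Bzw2 (1.10) followed between 30 and 40 Mb. From 10 to 20 Mb none was called by Cuffdiff (0), and the most abundant named locus there was Pdia6, a protein disulfide isomerase, at 174 and 195 FPKM by the authors' deposited table (0.17, q = 0.860).

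Rsad2 and Cmpk2 were the closest of the 4 called pairs that stand outside a trio. Rsad2, the antiviral protein viperin (27127607 to 27141317), stood at 0.5002 FPKM in C1, with 4.35 FPKM in C2 by the authors' deposited table (log2 ratio 3.12, q = 0.001668). Cmpk2, a mitochondrial nucleotide kinase (27154079 to 27164702), stood at 0.595 and 3.53 FPKM (2.57, q = 0.002973), and the gap between the loci was 12.8 kb. Both levels in C2 were low, and with a pseudocount of 1 the log2 ratios were 1.83 and 1.51. Of the promoters printed above, the interferon element core is in that of Rsad2.

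Between 40 and 60 Mb, in windows of 13 and 35 loci, 7 loci were called higher and 1 lower. Nrcam and Stxbp6, a neuronal adhesion protein and a syntaxin-binding protein, were called neighbours 250.5 kb apart, with log2 ratios of 1.59 and 1.74. They were the called loci of the thin window from 40 to 50 Mb, where 5 of the 13 loci were lower in C2. Egln3, a prolyl hydroxylase that marks HIF for destruction (55279939 to 55304861), rose from 14.1 to 110 FPKM by the authors' deposited table (2.96, q = 0.001668). Coch, the ubiquitin ligase G2e3 (1.00), the chromatin remodeller subunit Baz1a (0.90) and Foxa1, a factor that opens chromatin in epithelia (2.71), were the others. Next to Foxa1, which rose from 0.378 to 2.47 FPKM, Clec14a, an endothelial lectin (59365706 to 59370245), fell from 8.28 to 1.33 FPKM in that table (-2.63, q = 0.001668). From 60 to 70 Mb none was called by Cuffdiff (0).

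Of the 70 loci from 70 to 80 Mb, 9 were called higher and 0 lower. Of the 88 from 80 to 90 Mb, 6 were called higher and 1 lower. In the trio Gpx2, Rab15 and Fntb, spanning 129.1 kb, the log2 ratio was 6.49, 3.07 and 1.21. Rab15, a small GTPase of endosomes, stood at 2.60 FPKM in C1, with 21.8 FPKM in C2, and Fntb, the beta subunit of the enzyme that farnesylates Ras, at 8.70 and 20.1 FPKM (q = 0.004205) in the authors' deposited table. The smallest gap in the trio was 2.41 kb, between Gpx2 and Rab15. Just before it lay the called loci Plekhg3 (1.14) and Sptb, a beta spectrin (1.45).

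A second trio, Plek2, Tmem229b and Plekhh1, began about 2 Mb further on and spanned 201.0 kb across the border of the windows. Plek2, a pleckstrin, stood at 1.19 FPKM in C1, with 11.2 FPKM in C2, Tmem229b at 1.18 and 8.86 FPKM, and Plekhh1 at 0.249 and 2.75 FPKM by the authors' deposited table. Their log2 ratios were 3.23, 2.91 and 3.46, and the q of Plekhh1 was 0.0385. Other called loci of these windows were Pole2, a DNA polymerase epsilon subunit (1.64), Rtn1 (3.33), Tmem30b, a flippase subunit (2.30), Rdh11, a retinol dehydrogenase (1.01), Smoc1, a matrix calcium-binding protein (2.95), and Mfsd7c (2.06). Galnt16, a glycosyltransferase (81619976 to 81704883), fell from 3.66 to 1.26 FPKM in that table (-1.54, q = 0.01746).

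Of the 9 loci called lower, 6 lay between 100 and 120 Mb, where the windows held 57 and 78 loci. In the window from 90 to 100 Mb the called locus was Dio2, the deiodinase that activates thyroid hormone, which fell from 2.50 to 0.575 FPKM by the authors' deposited table (-2.12, q = 0.006456). Asb2, a ubiquitin ligase subunit of muscle and blood cells (104559351 to 104594211), fell from 3.00 to 0.265 FPKM (-3.50, q = 0.004205). It lies near the serpins, within the stretch with the lowest running median. Bdkrb1, a bradykinin receptor, and Hhipl1 fell by 1.38 and 0.95 on the log2 scale, with q of 0.0476 and 0.032 in the same table. The ninth, A230065H16Rik, fell by 2.16 on the log2 scale (q = 0.0154). A second row of that gene at the same position was not called (-1.35, q = 0.616).

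The serpin cluster was the longest stretch of lower values, with 4 consecutive loci from 104966365 to 105652539. The joined row Serpina3f,Serpina3g,Serpina3i,Serpina3n (105452753 to 105652539) fell from 154 to 54.1 FPKM by the authors' deposited table (-1.51, q = 0.001668). Serpina3m at the same position (-1.73, q = 0.852), Serpina3c (-0.998, q = 0.468) and the joined Serpina1 row (-1.21, q = 0.245) were not called. Some members of this family of protease inhibitors are closely related copies, so reads can be split among those copies and single values are uncertain. Loci called higher stood on both sides of the cluster: Ifi27l1, an interferon-inducible gene, went from 24.0 to 84.9 FPKM (1.82) before it, and Clmn lay after it. Tc2n and Fbln5, an elastic fibre protein, were called neighbours 28.1 kb apart at 102883722 to 103057552, and Fbln5 rose from 8.14 to 36.2 FPKM in that table (2.15).

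The imprinted interval held called loci of both directions. Dlk1, a secreted and membrane-bound Notch-related protein (110691032 to 110701546), rose from 1.03 to 11.4 FPKM by the authors' deposited table (3.47, q = 0.001668). The joined rows holding Rian and Mirg rose as well, with log2 ratios of 1.03 and 1.46 and q of 0.0351 and 0.0313, while a second Rian row at the same position was not called (1.34, q = 0.397). The 2 Meg3 rows, at 17.7 and 45.7 FPKM and at 58.0 and 150.04 FPKM in C1 and C2, were not called (1.36 and 1.37, q = 0.131 and 0.147). At the distal end of the interval Dio3, the deiodinase that inactivates thyroid hormone (111517439 to 111519307), fell from 4.57 to 1.16 FPKM in that table (-1.97, q = 0.004205), and its antisense row Dio3os,Mir1247 had -1.95 (q = 0.0632). Rtl1 stood at 0.0545 and 0.0664 FPKM, under the minimum. Dlk1 and Dio3, the 2 paternally used genes over the minimum, thus moved in opposite directions. The library kit keeps the strand, but use of the strand in counting is not stated, so overlapping and antisense rows are uncertain.

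**Figure D5:**
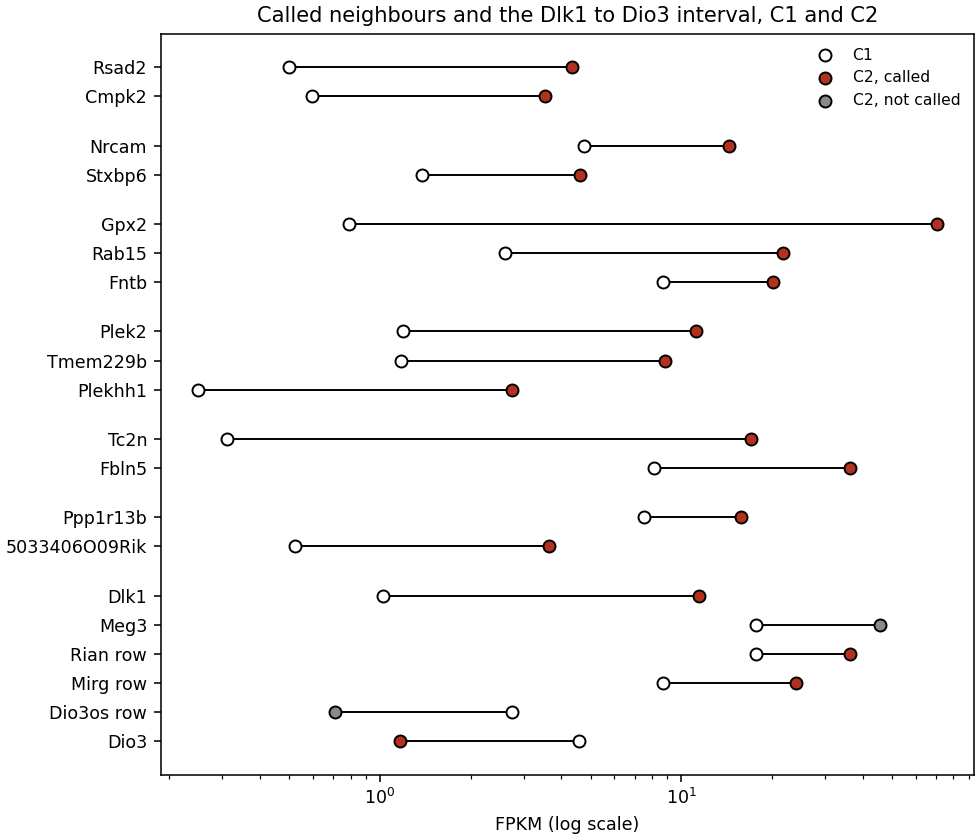
FPKM in C1 (open circles) and C2 (filled circles, red where the locus was called and grey where not) on a log axis, for the called neighbours and, in the last block, the Dlk1 to Dio3 interval. The 14 called neighbours all lie further right in C2, Gpx2 by the most (0.789 to 70.7 FPKM), while Dio3 and the Dio3os row lie further left.

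Distal to the interval the called loci were higher in C2 except for A230065H16Rik. Wars, a tryptophanyl-tRNA synthetase induced by interferon gamma, had a log2 ratio of 1.02 and lay before the interval. Ccdc85c (1.45) lay further before it, next to Hhipl1, which was called lower (-0.95). Ppp1r13b, a p53-binding protein (1.06), and 5033406O09Rik (2.81) were called neighbours 33.9 kb apart. Crip2, a LIM-domain protein, rose from 39.5 to 114 FPKM by the authors' deposited table (1.53, q = 0.004205). The others were Zbtb42 (1.31), 4930427A07Rik (1.44), Cdca7l (1.45) and Macc1 at the distal tip. In all, 8 pairs of consecutive loci were called in the same direction, all higher, in 4 pairs and 2 trios, or 13.6 per 100 called loci against 9.84 per 100 called loci over the other autosomes. Chromosome 19 (21.1), chromosome 14 (17.1) and chromosome 15 (15.8) had more per 100 called loci.

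A list of 64 well-known genes of chromosome 12 showed how familiar loci behaved. Of these, 52 were among the 472 loci, 11 were under the minimum and 1, Ighm, was not found under that name. Of the 52, 7 were called higher (Sdc1, Id2, Rrm2, Nampt, Egln3, Foxa1 and Dlk1), 3 lower (Dio2, Dio3 and the joined serpin row) and 42 were not called, 32 of them above 0 and 10 below. Over all chromosome 12 loci 10.6% were called higher and 1.91% lower, against 4.79% and 3.31% on the other autosomes. The list was not tested against these shares. The median of the 52 was 0.30, against 0.43 for all chromosome 12 loci and 0.08 for all autosomal loci. Akt1, a kinase of growth signalling, stood at 138 and 192 FPKM (0.47, q = 0.340) and Max, the partner of Myc, at 61.4 and 77.1 FPKM (0.33, q = 0.588) in the authors' deposited table. Among those below 0 was Lamb1, a laminin chain, at 151 and 128 FPKM (-0.24, q = 0.798).

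Markers of cell types moved between the conditions, and none (0) of the marker genes lies on chromosome 12. The fibroblast markers that define the labelled cell type were present, with a sum of 6599 FPKM over 8 genes in C1 and 3464 FPKM in C2 by the authors' deposited table, and 3 were called lower. The falls were uneven: the called ones were Thy1 (log2 ratio -2.97), Dcn (-1.29) and Col1a1 (-0.15). Col1a2 (-1.03) and Col3a1 (-1.11) were not called. Of 6 epithelial markers 5 were called higher (summed 605 and 902 FPKM). Krt18, the most abundant of the 6, stood at 516 FPKM in C1, with 514 FPKM in C2, and was not called. Of 6 skeletal muscle markers 5 were called lower (1182 and 101 FPKM). Of 5 lymphocyte markers 3 were called lower (7.08 and 0.896 FPKM), with Cd3d at 0 in C2. The 3 endothelial markers summed to 49.4 and 58.9 FPKM, and Cdh5 was called higher (0.90) while Pecam1 (-0.51) and Kdr (-0.70) were not called. None of 4 macrophage and 3 adipocyte markers was called by Cuffdiff (0). In bulk tumours fewer cells of a type and less RNA per cell cannot be told apart, and the part of these markers in the chromosome 12 values was not tested.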

How the data were processed

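Messenger RNA of 5 tumours was sequenced as stranded libraries, with single reads of 100 bases. Alignment was to MGSCv37 using TopHat with Bowtie, followed by Cufflinks for levels and differences, per the series' design text. Versions listed by the submitters' processing notes are TopHat2 2.0.8b, Cufflinks 2.1.1 and CASAVA 1.8.2. The values are taken as FPKM from the Cuffdiff layout of the file the authors deposited, whose header names no unit. The deposited p-values and q-values were used as they stand. From these values the log2 ratio of C2 over C1 was computed without a pseudocount, loci were ordered by start, and medians were taken in 10 Mb windows, over runs of at least 5 loci and over 25 consecutive loci. The deposited fold column was not used. Members, lists and rules were chosen with earlier results of these data known. Named loci were every called locus, the most abundant ones, loci at the minimum and loci that bound a stretch. Further loci that were not called, some from the list of 64 genes, were named as examples. The code was checked on simulated data. Alternatives were other minimums (0 and 5 FPKM), pseudocounts, window sizes, q of 0.01, a 2-fold minimum, Bonferroni adjustment and other row choices. Medians, ranks and plots were made with pandas 2.3.3, SciPy 1.17.1, matplotlib 3.10.9 and numpy 2.4.6 under Python 3.11.15.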

Additional observations from a re-analysis of the deposited data

How the results depend on the processing

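No paired analysis was possible because values per tumour are not in hand. Nor could a replicate be left out, or the sequencing run be used as a covariate, and the depth is unknown. Keeping 1 row per position, keeping loci not called and using an unadjusted p are alternatives chosen after seeing the data. The chromosome 12 median log2 ratio stayed between 0.35 (centred on all autosomal loci) and 0.43, and chromosome 12 ranked 1 among autosomes in each setting tried. With windows of 5 Mb 23 of 25 lay above the autosomal median, and with a pseudocount of 1 12 of 13 did. Loci called higher numbered 50, with 35 at q under 0.01 and 121 at an unadjusted Cuffdiff p under 0.05. Loci called lower numbered 9, with 5 at q under 0.01, 5 at a minimum of 5 FPKM and 18 at the unadjusted p. The Bonferroni adjustment left 0 in each direction, because the smallest p that Cuffdiff gave was 5e-05. At q under 0.01, 19 of the 59 called loci lost their call. Adding a pseudocount of 1 changed the sign of none (0) of them and shrank the ratio of 6 by more than 50%.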

Other observations

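Rows of chromosome 12 outside the rule had smaller log2 ratios than its loci within it, as had such rows on the other autosomes. In both kinds of row the chromosome 12 median lay above that of the other autosomes. The 133 rows without a gene name and with at least 1 FPKM had a median of 0.14, with 60.9% higher in C2, against -0.07 and 47.8% for such rows on the other autosomes. The 121 named rows under the minimum with both values above 0 had a median of 0.15, with 55.4% higher, against -0.22 and 42.0% elsewhere. On chromosome X, which is not an autosome and was left out of the comparison, 426 named loci had a median of -0.13 with 35.9% higher in C2.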
